A study of Mus musculus with 40 samples.

Results

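The data described here are the response of mouse bladder urothelial organoids, whose label names a double knockout (dKO) of Kmt2c with Kmt2d, to the menin inhibitor MI-503. They comprise the 4 RNA-seq libraries of the dKO genotype, 2 from cells given the solvent DMSO and 2 from cells given MI-503, out of 8 RNA-seq libraries and 40 samples in the series. The 2 groups, written below as DMSO and MI-503, differ by the compound, given at 1 µM for 4 days. All genes of the count table were examined, and 16921 of 53465 identifiers passed a filter on low counts. Both groups share the genotype Kmt2c_Kmt2d_dKO and the medium, which contained EGF, R-spondin, Noggin, the TGF-beta receptor inhibitor A83-01 and the ROCK inhibitor Y-27632. The sources used here do not give the alleles, the exons deleted or the number of lines behind the dKO cells. The corresponding 4 libraries of wild-type (WT) organoids, 2 with DMSO and 2 with MI-503, serve as the comparison. The labels do not say that replicates were separate cultures, so p-values measure only the spread between these libraries, which may be technical.

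Menin is a scaffold protein that joins the histone H3K4 methyltransferases KMT2A and KMT2B to chromatin, mainly at promoters, and MI-503 occupies the pocket through which menin binds KMT2A. KMT2C and KMT2D are related enzymes that place H3K4 monomethylation at enhancers. In leukaemia the menin-KMT2A complex is known for holding Hox genes and Meis1 active, and the bladder urothelium is a stratified epithelium with basal, intermediate and umbrella cells. The comparison asks what blocking menin does to RNA levels in urothelial cells whose genotype label says that both enhancer methyltransferases were targeted.

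The 4 libraries held 58113705 to 67756744 counts, and the 2 libraries of a group correlated at 0.9947 (DMSO) and 0.9948 (MI-503) across genes. Values are CPM, counts scaled to the size of each library and by TMM factors. Where no read was counted, up to 3 counts remain possible, which is 0.0443 to 0.0516 CPM before that scaling, covering counting error only. The labelled tissue held in every library: all 9 basal urothelial markers and 8 of 10 markers of differentiated urothelium measured at least 1 CPM in each, while Upk1a and Upk2 did not. Of other cell types, the 6 leukocyte markers summed to 0.014 to 0.0455 CPM and the 6 endothelial markers to 0.0981 to 0.259 CPM. The 6 neural markers summed to 12.1 and 11.9 CPM in DMSO and 15.0 and 13.4 CPM with MI-503, most of it from the myelin gene Mbp, while Syt1 was at 0. Fibroblast and smooth muscle markers are given below with the matrix genes. In bulk RNA, fewer cells of a type and less RNA per cell cannot be told apart. Kmt2c measured 55.2 and 52.3 CPM in DMSO and 26.6 and 29.8 CPM with MI-503, and Kmt2d measured 111 and 133 CPM in DMSO and 104 and 86.5 CPM with MI-503. The WT DMSO libraries measured 110.2 and 111 CPM for Kmt2c and 95.4 and 86.5 CPM for Kmt2d. Both targeted genes thus kept RNA in all 4 libraries labelled dKO, and whole-gene counts cannot show the loss of single exons.

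Treatment with MI-503 was followed by a change in 55.6% of the genes tested, with 4917 risen (29.1%) and 4485 fallen (26.5%) at an edgeR adjusted p under 0.05. Most changes were small: 1504 genes rose and 879 fell by at least 2-fold, and 416 rose and 231 fell by at least 4-fold. The median log2 fold change of all genes was 0.0306. With so many genes past the threshold, the share of a gene list that passed says little by itself, so each list is given by its split into risen and fallen genes and by its median. Genes of the integrated stress response, the ribosome biogenesis programme, the Hox clusters and EGF receptor ligands were lower. Genes of cholesterol synthesis, the antioxidant response and mitosis were higher.

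**Figure D1:**
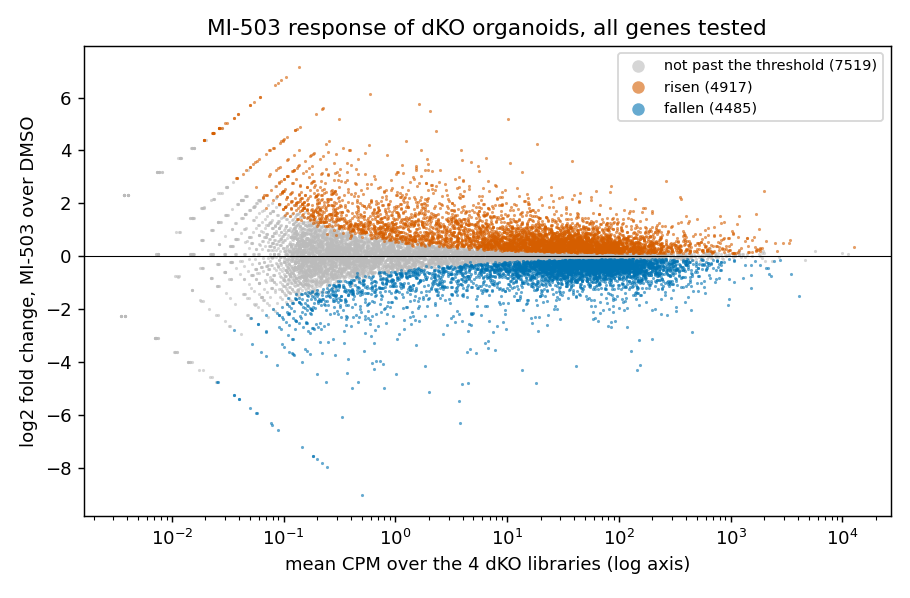
Each point is 1 of the 16921 genes tested, with its mean CPM over the 4 dKO libraries on a log axis and its log2 fold change (MI-503 over DMSO) on the vertical axis. Orange points are the 4917 genes that rose, blue points the 4485 that fell and grey points the 7519 that did not pass the threshold, and the diagonal rows at the left are genes with a few counts in all.

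Genes of the integrated stress response had the lowest median change of the 40 gene lists examined. This is the pathway in which kinases that sense amino acid shortage, unfolded proteins or haem loss phosphorylate the initiation factor eIF2, after which the transcription factor ATF4 is translated and switches on amino acid supply and stress genes. Of 44 tested genes of this list, 42 fell, 28 of them by at least 2-fold, and 2 rose, and the list median was -1.19 against 0.0306 over all genes. Many of its genes are known ATF4 targets that share a promoter element, the composite ATF4-C/EBP site TGATGNAA. The element, searched on both strands in RefSeq promoters of GRCm38.p6 (250 bases before to 50 after a start site), is shown here for 8 genes that fell, with the 26 bases on each side where these lie before the start site. Capitals mark the element, which reads as its reverse complement where the match lies on the opposite strand.
Atf3: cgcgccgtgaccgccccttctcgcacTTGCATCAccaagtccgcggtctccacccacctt
Chac1: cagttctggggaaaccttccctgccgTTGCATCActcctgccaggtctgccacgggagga
Fgf21: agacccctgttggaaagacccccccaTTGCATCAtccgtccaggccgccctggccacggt
Asns: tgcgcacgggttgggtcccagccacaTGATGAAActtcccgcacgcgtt
Nupr1: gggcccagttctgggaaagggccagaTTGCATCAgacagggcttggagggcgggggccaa
Vldlr: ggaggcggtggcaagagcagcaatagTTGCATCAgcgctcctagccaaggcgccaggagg
Herpud1: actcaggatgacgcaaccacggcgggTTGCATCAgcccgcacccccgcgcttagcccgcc
Trim46: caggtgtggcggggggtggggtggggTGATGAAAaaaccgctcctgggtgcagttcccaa
The windows lie upstream of the start site, Atf3 at chr1:191183410-191183469 on the minus strand, Chac1 at chr2:119351023-119351082 on the plus strand, Fgf21 at chr7:45615596-45615655 on the minus strand, Asns at chr6:7693210-7693258 on the minus strand. The others are Nupr1 at chr7:126625547-126625606 on the minus strand, Vldlr at chr19:27216794-27216853 on the plus strand, Herpud1 at chr8:94386291-94386350 on the plus strand and Trim46 at chr3:89245338-89245397 on the minus strand. Nupr1, a stress-induced chromatin protein, and Vldlr, a lipoprotein receptor, fell by 1.48 and 1.04 on the log2 scale. Trim46, which fell by 3.66, was not in the list.

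The element occurred in a promoter of 310 of 10883 tested genes that have a RefSeq promoter, or 2.85%. It was present in 2.42% of the genes that rose and in 2.78% of those that did not pass. Among genes that fell by at least 2-fold it was present in 7.43% (40 of 538), and among those that fell by at least 4-fold in 11.3% (17 of 150). In the stress-response list 12 of 35 genes with a promoter held it (34.3%), although a list of known ATF4 targets is not independent of the element. The AP-1 site TGACTCA was present in 4.93% of all genes. Among all genes that fell it was present in 4.47%, and in 8.36% at 2-fold or more and 10.7% (16 of 150) at 4-fold or more. Among genes that rose these shares were 5.29%, 5.78% and 7.09%. The antioxidant response element TGACNNNGC, which an AP-1 site followed by GC also matches, was present in 16.9% of all genes and 17.4% of those that rose by at least 2-fold. It was present in 28.6% of the NRF2 list (12 of 42) and 31.4% of the stress-response list (11 of 35). The sterol response element TCACNCCAC was present in 1.46% of all genes and 1.96% of those that rose by at least 2-fold. In the cholesterol list 1 of 20 genes with a promoter held it (5.0%). These matches describe letters in the window and do not show that a factor was bound.

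**Figure D2:**
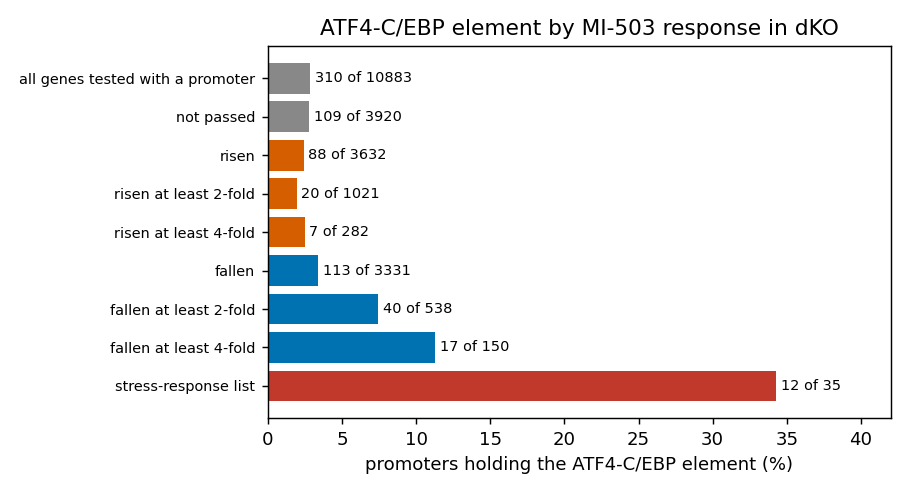
Bars give the percentage of genes with the ATF4-C/EBP element in a RefSeq promoter, by their response to MI-503 in dKO organoids, with the counts beside each bar. The bars for genes that fell lengthen from 3.39% over all fallen genes to 7.43% at 2-fold and 11.3% at 4-fold, while those for genes that rose are 2.42%, 1.96% and 2.48%.

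Transcription factors of the response fell together. Atf4 itself measured 548 and 548 CPM in DMSO and 253 and 249 CPM with MI-503 (log2 fold change -1.13, SE 0.043, edgeR adjusted p = 1.36e-10). Atf3, a factor induced by ATF4, measured 77.5 and 77.8 CPM in DMSO and 4.41 and 4.34 CPM with MI-503 (log2 fold change -4.15, SE 0.078, edgeR adjusted p = 3.78e-13). Both Atf3 libraries with MI-503 lay more than 10-fold below both DMSO libraries. Ddit3, which encodes the death-promoting factor CHOP, measured 140.4 and 151 CPM in DMSO and 24.1 and 21.6 CPM with MI-503 (log2 fold change -2.67, SE 0.072, edgeR adjusted p = 6.49e-12). Atf5 fell by 2.19, Cebpg (-1.87) and Cebpb (-1.49) on the log2 scale. Among feedback regulators, Ppp1r15a, whose product brings a phosphatase to eIF2, measured 269 and 289 CPM in DMSO and 15.2 and 13.1 CPM with MI-503 (log2 fold change -4.30, SE 0.070, edgeR adjusted p = 1.2e-13). Trib3, a pseudokinase that restrains ATF4 and CHOP, measured 272 and 317 CPM in DMSO and 18.5 and 15.1 CPM with MI-503 (log2 fold change -4.13, SE 0.12, edgeR adjusted p = 9.46e-12). Chac1, which degrades glutathione, fell by 2.37, and Fgf21, a secreted stress hormone at low level here, also fell (-2.91). Groups did not overlap for any of these genes, which also held for 75.1% of all genes tested (12704 of 16921).

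Amino acid supply genes of the same list fell as well. Asns, asparagine synthetase, measured 825 and 771 CPM in DMSO and 360.0 and 354 CPM with MI-503 (log2 fold change -1.16, SE 0.049, edgeR adjusted p = 3.54e-10). In serine and mitochondrial one-carbon metabolism, Aldh1l2 measured 360.2 and 352 CPM in DMSO and 41.8 and 39.2 CPM with MI-503 (log2 fold change -3.14, SE 0.051, edgeR adjusted p = 1.2e-13), while Mthfd2 fell by 1.22, Shmt2 (-1.17), Psph (-1.60), Phgdh (-0.40) and Psat1 (-0.36) on the log2 scale. The transporter gene Slc7a5, which imports large neutral amino acids, measured 434 and 459.5 CPM in DMSO and 100.2 and 91.6 CPM with MI-503 (log2 fold change -2.22, SE 0.061, edgeR adjusted p = 6.93e-12), and Slc3a2, which encodes its partner chain, fell by 0.80. Slc7a11, the cystine importer, fell by 0.60. The tRNA synthetase genes Wars, Nars, Aars, Sars, Gars and Mars fell (log2 fold changes -1.64, -1.62, -1.07, -0.76, -0.67 and -0.54). The exceptions were Gdf15, a stress cytokine that is also a p53 target, and Cbs, an enzyme of cysteine synthesis, which rose by 2.33 and 1.57.

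**Figure D3:**
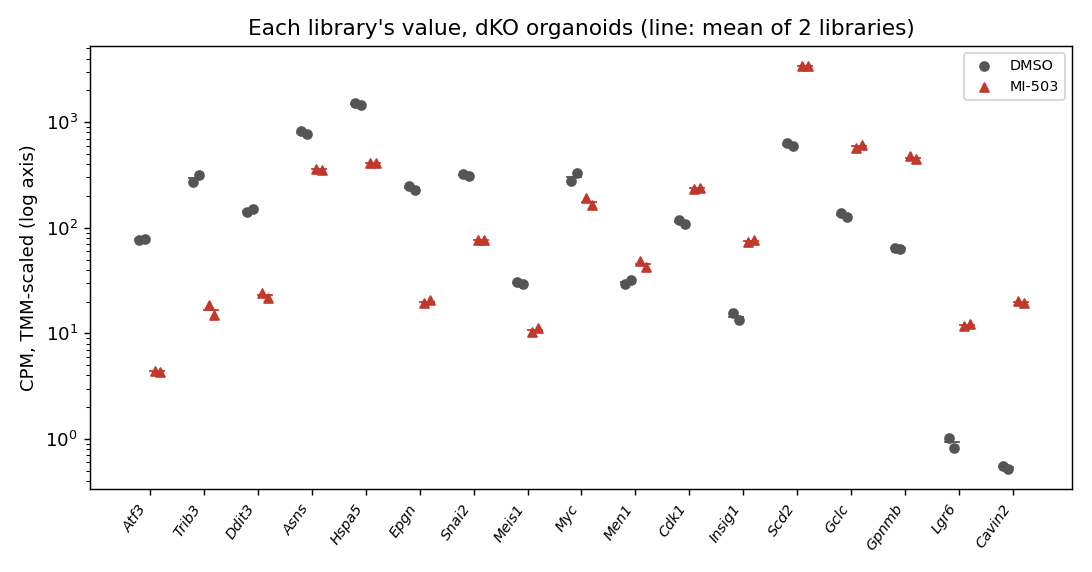
Points give the TMM-scaled CPM of each dKO library on a log axis, circles for DMSO and triangles for MI-503, and short lines give the mean of the 2 libraries. For each of the 17 genes the 2 libraries of a group lie close together and the groups do not overlap, from Atf3 (77.5 and 77.8 CPM against 4.41 and 4.34) to Cavin2 (0.561 and 0.519 CPM against 20.4 and 19.5). Among all genes tested, 75.1% had no overlap between the groups.

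Protein folding genes of the endoplasmic reticulum (ER) changed less uniformly. Of 38 tested genes, 24 fell, 8 rose and 6 did not pass, with a median of -0.301. Hspa5, the main ER chaperone BiP, measured 1511 and 1457 CPM in DMSO and 410.2 and 408 CPM with MI-503 (log2 fold change -1.86, SE 0.053, edgeR adjusted p = 9.46e-12). The oxidase gene Ero1l fell by 2.00, the degradation genes Herpud1 and Sel1l also fell (log2 fold changes -1.66 and -1.36), and so did the sensor genes Ern1 and Atf6 (log2 fold changes -1.75 and -1.47). Calr, Pdia6 and Sdf2l1, which also encode ER folding factors, rose by 0.48, 0.43 and 0.44. Hsp90b1 did not pass (log2 fold change 0.0011, SE 0.060). Of 24 heat-shock genes, 7 rose, 6 fell and 11 did not pass. Hspa8, the constitutive cytosolic HSP70, measured 893 and 790.0 CPM in DMSO and 2472 and 2579 CPM with MI-503 (log2 fold change 1.58, SE 0.066, edgeR adjusted p = 3.25e-10), and the mitochondrial chaperone gene Hspa9 measured 2185 and 2038 CPM in DMSO and 901 and 908 CPM with MI-503 (log2 fold change -1.22, SE 0.051, edgeR adjusted p = 2.98e-10).

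Genes of menin and its complexes moved by small amounts. Of 20 tested genes, 12 fell, 4 rose and 4 did not pass, none by 2-fold, with a median of -0.239. Men1, which encodes menin, measured 29.6 and 32.0 CPM in DMSO and 48.7 and 42.9 CPM with MI-503 (log2 fold change 0.57, SE 0.082, edgeR adjusted p = 4.23e-05), higher in both MI-503 libraries. Kmt2a fell by 0.32 and Kmt2b did not pass (log2 fold change 0.020, SE 0.083). Kmt2c fell by 0.93, and Kmt2d fell by 0.36 (edgeR adjusted p = 0.0066). The Kmt2d call ended without the second DMSO library (edgeR adjusted p = 0.0856) and without the second MI-503 library (edgeR adjusted p = 0.0651). Kdm6a, the H3K27 demethylase of the KMT2C and KMT2D complexes, fell by 0.53, and Dpy30, a core subunit shared by all KMT2 complexes, rose by 0.72.

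Hox genes fell or did not pass. Of 32 tested Hox genes, 18 fell, none rose and 14 did not pass, with a median of -0.408 (1 rose without the first DMSO library or the second MI-503 library), and 7 further Hox genes were too low to test. Hoxa9 measured 106 and 108 CPM in DMSO and 74.2 and 73.4 CPM with MI-503 (log2 fold change -0.53, SE 0.048, edgeR adjusted p = 5.08e-07). Hoxb9 and Hoxd13, genes at the posterior end of their clusters, fell by more than 2-fold. Hoxb9 measured 9.37 and 7.71 CPM in DMSO and 2.43 and 2.22 CPM with MI-503 (log2 fold change -1.87, SE 0.13, edgeR adjusted p = 3.6e-08), and Hoxd13 measured 2.47 and 2.33 CPM in DMSO and 0.401 and 0.600 CPM with MI-503 (log2 fold change -2.27, SE 0.26, edgeR adjusted p = 5.66e-06). Meis1, a Hox cofactor and a known menin-KMT2A target in leukaemia, measured 30.8 and 29.4 CPM in DMSO and 10.4 and 11.3 CPM with MI-503 (log2 fold change -1.47, SE 0.072, edgeR adjusted p = 1.22e-09). Of 17 genes linked to menin in other tissues, 12 fell and 3 rose, namely Myb (2.53), Eya1 (1.52) and Cdkn2c (0.47). The Eya1 call ended with any 1 of the 4 libraries left out (edgeR adjusted p of 0.0718 to 0.171). Cdkn1b and Cdkn2c, cell cycle inhibitor genes known as menin targets in endocrine cells, thus moved in opposite directions, with Cdkn1b at -0.23.

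Lipid synthesis genes rose. Cholesterol synthesis is controlled by the transcription factor SREBP2, which is released when sterol is low. Of 29 tested genes, 25 rose, 15 by at least 2-fold, 1 fell and 3 did not pass, with a median of 1.04. Insig1, which retains the SREBP complex in the ER, measured 15.6 and 13.3 CPM in DMSO and 72.9 and 77.2 CPM with MI-503 (log2 fold change 2.38, SE 0.078, edgeR adjusted p = 2.9e-11). Acat2 measured 20.9 and 17.5 CPM in DMSO and 104 and 108 CPM with MI-503 (log2 fold change 2.47, SE 0.075, edgeR adjusted p = 1.42e-11). The genes Mvd, Fdps, Idi1 and Hmgcs1 of the mevalonate pathway rose by 2.23, 2.00, 1.53 and 1.25. Abca1, which exports cholesterol, rose by 2.15, and Srebf2 itself did not pass (0.078). In fatty acid and glycerolipid synthesis 19 of 30 genes rose and 5 fell. Scd2, a fatty acid desaturase, measured 633 and 595 CPM in DMSO and 3397 and 3402 CPM with MI-503 (log2 fold change 2.47, SE 0.049, edgeR adjusted p = 4.47e-13), and Lpin1, a phosphatidic acid phosphatase, measured 6.03 and 5.47 CPM in DMSO and 68.7 and 71.3 CPM with MI-503 (log2 fold change 3.61, SE 0.070, edgeR adjusted p = 3.97e-13). Pparg, a nuclear receptor of urothelial differentiation and fat storage, fell by 1.13.

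Antioxidant and lysosomal genes were higher. NRF2 is a transcription factor released from KEAP1 by oxidants, and of 50 tested genes of its list 41 rose, 18 by at least 2-fold, 5 fell (3 without the first DMSO library or without either MI-503 library) and 4 did not pass, with a median of 0.772. Gclc, which limits glutathione synthesis, measured 138 and 127 CPM in DMSO and 574 and 608 CPM with MI-503 (log2 fold change 2.16, SE 0.057, edgeR adjusted p = 5.94e-12), and Nqo1, a quinone reductase, measured 27.7 and 25.5 CPM in DMSO and 138 and 144 CPM with MI-503 (log2 fold change 2.41, SE 0.066, edgeR adjusted p = 6.76e-12). Carbonyl reductase Cbr3 measured 2.50 and 2.90 CPM in DMSO and 25.8 and 23.3 CPM with MI-503 (log2 fold change 3.18, SE 0.094, edgeR adjusted p = 1.12e-11). Aldh1a3, Slc7a11 and Nfe2l2, which encodes NRF2, fell instead (log2 fold changes -2.55, -0.60 and -0.49). Of 52 lysosome and autophagy genes 32 rose and 7 fell, with a median of 0.33. Lipa, the lysosomal acid lipase, rose by 1.58, whereas the autophagy receptor gene Sqstm1 fell by 1.13. Gpnmb, a lysosomal membrane glycoprotein, measured 65.0 and 63.6 CPM in DMSO and 476 and 448 CPM with MI-503 (log2 fold change 2.84, SE 0.057, edgeR adjusted p = 4.47e-13).

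Cell cycle genes rose by small amounts. Of 50 tested mitosis genes 44 rose and 4 fell, with a median of 0.5, and of 50 replication genes 36 rose and 3 fell (1 without the first library of either group), with a median of 0.388. Only 2 and 3 of these reached a 2-fold rise. Cdk1, the mitotic kinase, measured 119 and 109 CPM in DMSO and 233 and 239 CPM with MI-503 (log2 fold change 1.05, SE 0.052, edgeR adjusted p = 1.35e-09), and Cdc20, which activates the anaphase complex, measured 62.5 and 65.4 CPM in DMSO and 150.4 and 147 CPM with MI-503 (log2 fold change 1.22, SE 0.051, edgeR adjusted p = 3.25e-10). Mki67 rose by 0.57 and Rrm2, a subunit of ribonucleotide reductase, by 0.96. Ndc80, a kinetochore gene, fell by 0.93. Of 15 cyclin D, CDK, CDK inhibitor and RB family genes 9 rose and 3 fell. The inhibitor gene Cdkn1b fell by 0.23, and 4 other inhibitor genes rose, with Cdkn2c at 0.47, Cdkn1a at 0.51, Cdkn1c at 1.50 and Cdkn2d at 1.42. Of 32 p53 pathway genes 20 rose and 9 fell, with a median of 0.342. Trp53 itself did not pass (-0.023). Fas, a death receptor, measured 1.67 and 1.77 CPM in DMSO and 5.89 and 6.51 CPM with MI-503 (log2 fold change 1.85, SE 0.13, edgeR adjusted p = 4.98e-08), while Bbc3 and Pmaip1, which promote apoptosis, fell (log2 fold changes -1.61 and -0.65). Gtse1 and Ckap2, which rose by 1.64 and 1.44, are also genes of the mitotic spindle.

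Genes of the MYC network and of ribosome biogenesis fell. Of 51 such genes 35 fell and 9 rose (5 without the first MI-503 library), with a median of -0.338. Myc measured 278 and 328 CPM in DMSO and 189.7 and 164 CPM with MI-503 (log2 fold change -0.78, SE 0.082, edgeR adjusted p = 2.15e-06), and its partner gene Max fell by 0.86. Nop58, a core protein of small nucleolar ribonucleoproteins, measured 387 and 361 CPM in DMSO and 145 and 147 CPM with MI-503 (log2 fold change -1.36, SE 0.051, edgeR adjusted p = 1.15e-10), and Wdr43 fell by 1.26. Of 43 nuclear genes of the respiratory chain 26 rose and 1 fell (2 without the second DMSO library), with a median of 0.244. The 13 protein-coding genes of the mitochondrial genome went mainly the other way, with 11 fallen and 2 risen. Of these, mt-Nd3, mt-Nd4l, mt-Nd6, mt-Atp8, mt-Atp6, mt-Co2 and mt-Co3 measured at most 36.4 CPM in any dKO library. The remaining ones measured at least 877 CPM in each, so much of this split rests on genes with far fewer reads. mt-Cytb measured 6297 and 5952 CPM in DMSO and 2011 and 2278 CPM with MI-503 (log2 fold change -1.51, SE 0.067, edgeR adjusted p = 4.69e-10), and mt-Co1 measured 11737 and 10693 CPM in DMSO and 13132 and 15123 CPM with MI-503 (log2 fold change 0.33, SE 0.072, edgeR adjusted p = 0.00125). Mitochondrial genes took 2.35% to 3.05% of counts in these libraries, and their reads can be shared with nuclear copies. In glycolysis and hypoxia 19 of 40 genes rose and 10 fell, with Ndrg1 and Vegfa, both hypoxia-inducible, down (log2 fold changes -2.35 and -1.20) and Epas1, which encodes HIF-2 alpha, up by 2.20.

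Most ligands of the EGF receptor were lower in a medium that supplied EGF. Epgn (epigen) measured 248 and 229 CPM in DMSO and 19.5 and 20.5 CPM with MI-503 (log2 fold change -3.58, SE 0.060, edgeR adjusted p = 1.2e-13), Ereg (epiregulin) measured 722 and 702 CPM in DMSO and 169.7 and 179 CPM with MI-503 (log2 fold change -2.03, SE 0.049, edgeR adjusted p = 2.24e-12), and Areg (amphiregulin) measured 516 and 502 CPM in DMSO and 132 and 139 CPM with MI-503 (log2 fold change -1.91, SE 0.048, edgeR adjusted p = 3.92e-12). Btc fell by 1.16, Tgfa rose by 0.42, and the receptor gene Egfr did not pass (-0.065). Of 41 genes of EGF receptor ligands, MAPK feedback and immediate early response 20 fell and 9 rose, with a median of -0.217. The AP-1 genes Jun, Fosl2, Jund and Fos fell (log2 fold changes -1.64, -1.05, -1.02 and -1.01), whereas Fosl1 rose by 0.49.

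Cytokine and interferon genes were mixed. Of 37 cytokine and NF-kB genes 18 fell and 10 rose. Tnfsf15, a TNF family cytokine, measured 34.8 and 35.2 CPM in DMSO and 1.48 and 1.04 CPM with MI-503 (log2 fold change -4.78, SE 0.12, edgeR adjusted p = 2.44e-12). Predicted, RIKEN and clone-named genes aside, this was the steepest fall among genes without overlap and with a mean of at least 5 CPM over the 4 libraries. Ptgs2, the inducible prostaglandin synthase, fell by 0.99, Il18 (-1.72) and Cxcl1 (-1.53), while Cx3cl1 and Tnfaip3 rose by 1.23 and 0.92. Of 35 interferon-response genes 14 fell, 6 rose and 15 did not pass, with a median of -0.475. The median was -0.247 without the first MI-503 library and -0.246 with a stricter filter of 50 counts in 2 libraries. Ifi44 measured 1.99 and 1.84 CPM in DMSO and 0.208 and 0.292 CPM with MI-503 (log2 fold change -2.93, SE 0.27, edgeR adjusted p = 6.28e-07) and Isg15 measured 0.925 and 1.39 CPM in DMSO and 0.104 and 0.227 CPM with MI-503 (log2 fold change -2.81, SE 0.38, edgeR adjusted p = 2.69e-05), both at low level. Stat2, Irf1 and Mx1 rose by 1.16, 1.71 and 2.52. Of 14 genes of MHC class I presentation 7 rose and 2 fell, with Tap1, a peptide transporter, at 1.00.

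Urothelial identity genes did not move as 1 group. Of 25 basal genes 11 fell and 7 rose (3 without the first library of either group), with a median of -0.13. Krt5 and Krt14, the basal keratins, did not pass (0.12, SE 0.071, and -0.16, SE 0.10). Krt5 passed at 0.20 without the second DMSO or MI-503 library, and Krt14 at -0.28 and -0.29 without the first DMSO and MI-503 library. Trp63, the master factor of basal epithelium, measured 1019 and 991 CPM in DMSO and 566 and 565 CPM with MI-503 (log2 fold change -0.83, SE 0.043, edgeR adjusted p = 2.24e-09). The desmosomal cadherin genes Dsc3 and Dsg3 fell (log2 fold changes -1.63 and -1.12), as did the integrin gene Itga6 (-0.76), and Ngfr rose by 1.73. Of 38 genes of differentiated urothelium 15 fell and 11 rose, with Klf5, Upk1b and Ovol1 down (log2 fold changes -0.70, -0.48 and -2.16) and Upk3bl up by 1.84. Of 34 cornification genes 14 fell and 7 rose. Krt6b measured 41.8 and 42.6 CPM in DMSO and 10.6 and 10.4 CPM with MI-503 (log2 fold change -2.01, SE 0.070, edgeR adjusted p = 5.84e-11). Cdsn, which encodes corneodesmosin, had 442 and 569 counts in DMSO and 8 and 13 with MI-503 (log2 fold change -5.48, SE 0.20, edgeR adjusted p = 8.11e-11). Summed over the 9 fixed basal markers, the libraries measured 25620 and 28060 CPM in DMSO and 26180 and 23570 CPM with MI-503, which overlap.

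Most regulators of mesenchymal transition and epithelial adhesion genes were lower. Of 14 tested genes 10 fell and 2 rose. Snai2, a repressor of epithelial genes also expressed in basal cells, measured 326 and 309 CPM in DMSO and 76.8 and 77.5 CPM with MI-503 (log2 fold change -2.04, SE 0.048, edgeR adjusted p = 2.1e-12), and Zeb2 fell by 2.19. Cdh1 (E-cadherin) measured 492 and 497 CPM in DMSO and 279 and 285 CPM with MI-503 (log2 fold change -0.81, SE 0.042, edgeR adjusted p = 2.39e-09), whereas Epcam rose by 0.44. Of 26 matrix genes 17 rose and 4 fell, with a median of 0.936. Spon2 measured 0.106 and 0.0701 CPM in DMSO and 4.24 and 3.74 CPM with MI-503 (log2 fold change 5.49, SE 0.29, edgeR adjusted p = 2.5e-09), Sparc measured 0.591 and 0.757 CPM in DMSO and 3.61 and 4.04 CPM with MI-503 (log2 fold change 2.49, SE 0.14, edgeR adjusted p = 3.95e-09), and Vim rose by 1.98. Mmp2 had no count in DMSO and 15 and 7 counts with MI-503. The 8 fibroblast markers summed to 3.56 and 4.16 CPM in DMSO and 7.78 and 8.49 CPM with MI-503, nearly all from Pdgfra, and Dcn, Lum, Col1a2 and Thy1 were at 0 in all 4 libraries. The 7 smooth muscle markers summed to 1.58 and 1.35 CPM in DMSO and 7.99 and 8.18 CPM with MI-503, of which Acta2 made up 1.11 and 0.869 and then 7.12 and 7.15 CPM, and Myocd was at 0. The part of other cells in these rises was not tested.

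Signalling genes and imprinted genes included several of the steepest rises. Cavin2, which encodes a caveolar coat protein, measured 0.561 and 0.519 CPM in DMSO and 20.4 and 19.5 CPM with MI-503 (log2 fold change 5.21, SE 0.11, edgeR adjusted p = 8.43e-13). With the same genes left out, this was the steepest rise among genes without overlap and with a mean of at least 5 CPM over the 4 libraries. Of 9 caveola genes 6 rose, 1 fell and 2 did not pass. Lgr6, an R-spondin receptor, measured 1.03 and 0.827 CPM in DMSO and 11.8 and 12.3 CPM with MI-503 (log2 fold change 3.70, SE 0.12, edgeR adjusted p = 1.96e-11), and Sfrp1, a secreted WNT inhibitor, rose by 3.66. Of 29 WNT genes 15 rose and 5 fell, while Axin2, a WNT feedback gene, did not pass (-0.011). In the TGF-beta and BMP group 17 of 37 genes rose and 14 fell, with Id2 up by 1.71. Grem1, a BMP antagonist, had 518 and 508 counts in DMSO and 4 and 8 with MI-503 (log2 fold change -6.30, SE 0.26, edgeR adjusted p = 2.65e-10). The NOTCH receptor gene Notch1 rose by 1.10, and Jag1 and Notch2 fell (log2 fold changes -0.95 and -0.67). Of 18 imprinted genes 11 rose and 3 fell. Mest measured 2.05 and 1.37 CPM in DMSO and 18.5 and 20.3 CPM with MI-503 (log2 fold change 3.51, SE 0.17, edgeR adjusted p = 1.01e-09), and Grb10, an adaptor that restrains insulin signalling, measured 15.9 and 15.6 CPM in DMSO and 2.80 and 2.82 CPM with MI-503 (log2 fold change -2.49, SE 0.11, edgeR adjusted p = 7.54e-10). Prl2c3, one of several near-identical proliferin genes whose reads counting may split, measured 2.05 and 1.72 CPM in DMSO and 36.7 and 33.9 CPM with MI-503 (log2 fold change 4.23, SE 0.11, edgeR adjusted p = 3.92e-12).

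Demethylase and coactivator genes were slightly lower, and Polycomb genes were mixed. Of 33 demethylase and coactivator genes 19 fell and 2 rose (1 without the first DMSO library or without either MI-503 library), with a median of -0.255, among them Crebbp (-0.62), Ep300 (-0.37), Kdm4a (-0.95) and Aff1 (-1.25), a gene of the super elongation complex. Of 31 Polycomb genes 12 rose and 10 fell. Bmi1, a PRC1 subunit, fell by 0.88, and Suz12, a PRC2 subunit, fell by 0.57, whereas Phf19 rose by 1.46 and the methyltransferase gene Ezh2 did not pass (-0.016).

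**Figure D4:**
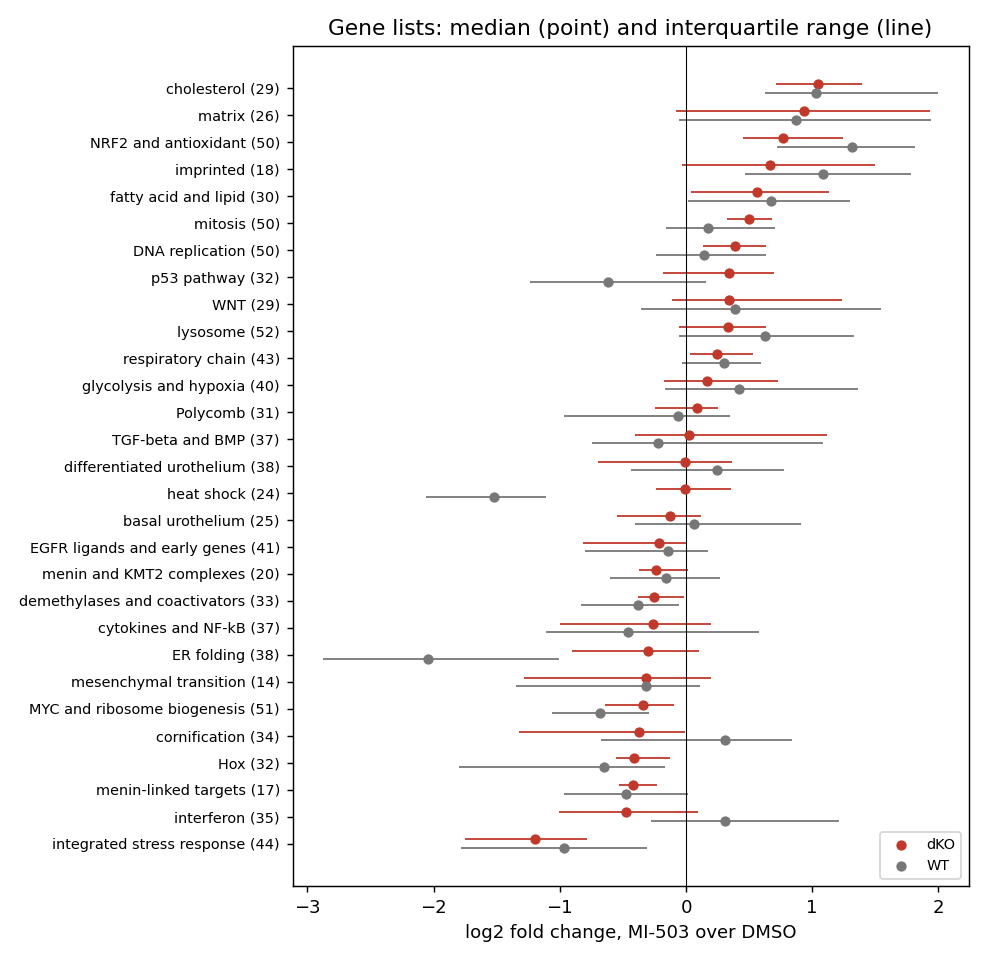
For 29 gene lists, points give the median log2 fold change (MI-503 over DMSO) of the tested genes and lines the interquartile range, red for dKO and grey for WT, with the number of genes in brackets. The stress-response list is lowest in dKO (-1.19) and the cholesterol list highest (1.04), and the ER folding list lies far apart between genotypes (-0.301 in dKO against -2.05 in WT).

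The dKO response resembled the WT response in direction and was smaller at the median. MI-503 changed 69% of the genes in WT, and the median absolute log2 fold change was 0.396 in dKO and 0.634 in WT. These contrasts share no library, and across the 16921 genes their log2 fold changes correlated at 0.611 (Pearson) and 0.629 (Spearman), a description over genes that are not independent. Of 2383 genes called and changed at least 2-fold in dKO, 1844 (77.4%) were called in the same direction in WT and 100 in the opposite one. The test of the difference itself, the genotype by MI-503 interaction, passed for 46.8% of genes (4190 higher in dKO and 3725 lower). Among the 9402 genes called in dKO, it passed for 5509, of which 1729 had the larger absolute change in dKO and 3780 in WT.

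**Figure D5:**
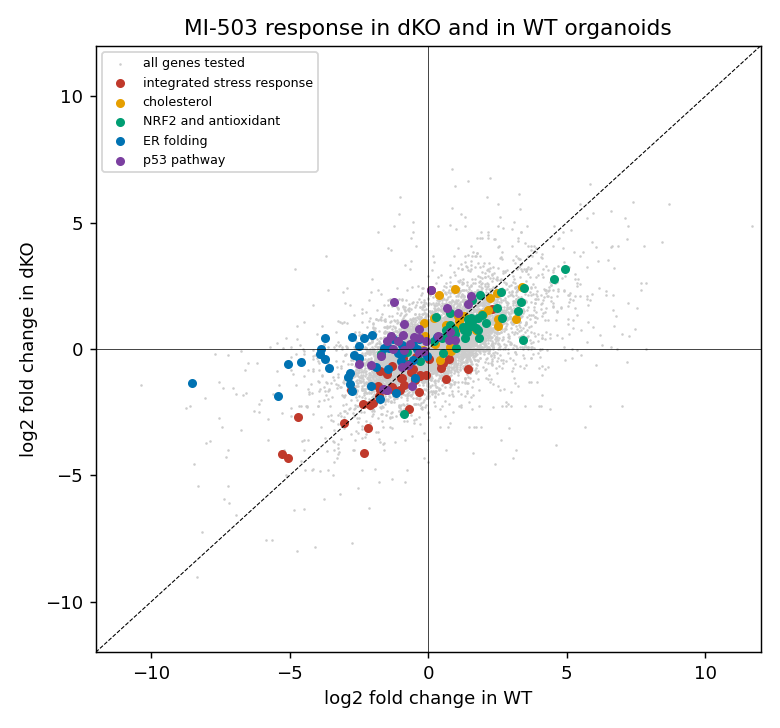
Each grey point is 1 of the 16921 genes tested, with its log2 fold change (MI-503 over DMSO) in WT on the horizontal axis and in dKO on the vertical axis, and coloured points are 5 gene lists. The dashed line marks equal change, and 32 of 38 ER folding genes had a higher response in dKO in the interaction test (3 lower), with a median of -2.05 in WT and -0.301 in dKO.

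Several groups differed between genotypes. Hspa5 had log2 fold changes of -1.86 in dKO and -5.42 in WT (interaction 3.56, SE 0.075, edgeR adjusted p = 1.53e-12). Calr and Sdf2l1 rose in dKO and fell in WT (log2 fold changes -2.74 and -3.73) (interaction 4.17, SE 0.084, edgeR adjusted p = 1.24e-12 for the latter). Hspa8 rose in dKO and fell by 0.88 in WT (interaction 2.47, SE 0.093, edgeR adjusted p = 5.02e-10). These values rest on the WT DMSO libraries, in which Hspa5 measured 14099 and 15232 CPM against 1511 and 1457 CPM in the dKO DMSO libraries, and the part of those 2 libraries was not tested. In the p53 list 20 genes rose and 9 fell in dKO, and 8 rose and 21 fell in WT, with the interaction higher in dKO for 22 genes and lower for 3. Fas rose by 1.85 in dKO and fell by 1.23 in WT (interaction 3.08, SE 0.17, edgeR adjusted p = 1.15e-08), and Cdkn1a rose by 0.51 and fell by 1.34 (interaction 1.85, SE 0.067, edgeR adjusted p = 3.62e-10). The interferon list went the other way, with 17 risen and 4 fallen in WT and the interaction lower in dKO for 17 genes and higher for 2.

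Within the stress-response list the interaction was higher in dKO for 10 genes, lower for 21 and did not pass for the other 13. Atf4 had log2 fold changes of -1.13 in dKO and -0.98 in WT, and its interaction was -0.15 (edgeR adjusted p = 0.0635). Trib3 fell further in dKO (-4.13) than in WT (-2.32; interaction -1.81, SE 0.15, edgeR adjusted p = 6.08e-07), as did Chac1 (-2.37 and -0.70; interaction -1.67, SE 0.18, edgeR adjusted p = 4.74e-06). Other genes fell less in dKO, among them Ddit3 (-2.67 and -4.69; interaction 2.02, SE 0.10, edgeR adjusted p = 4.37e-09), Atf3 (-4.15 and -5.28; interaction 1.13, SE 0.11, edgeR adjusted p = 2.28e-06) and Ppp1r15a (-4.30 and -5.04; interaction 0.74, SE 0.093, edgeR adjusted p = 1.98e-05). Gdf15 rose in dKO (interaction 2.24, SE 0.45, edgeR adjusted p = 0.00104). Shmt2 fell by 1.17 in dKO and rose by 0.65 in WT (interaction -1.82, SE 0.13, edgeR adjusted p = 1.31e-07), and Pck2 fell by 0.79 and rose by 1.46 (interaction -2.25, SE 0.10, edgeR adjusted p = 2.07e-09). Genes outside the lists with opposite changes included Gjb2, a gap junction gene, which fell by 2.25 in dKO and rose by 0.51 in WT. Prune2 fell by 1.77 in dKO and rose by 1.19 in WT (SE 0.39, edgeR adjusted p = 0.0144 in WT). Its WT change rests on few reads, with 0.260 and 0.0992 CPM in WT DMSO and 0.409 and 0.418 CPM in WT MI-503. Nol4l rose by 1.69 in dKO and fell by 1.32 in WT (interaction 3.01, SE 0.18, edgeR adjusted p = 2.2e-08).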

How the data were processed

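PolyA RNA of urothelial organoids was sequenced in 8 libraries, 2 per group of genotype and treatment, grouped by their labels. The deposited values are raw read counts per Ensembl gene. The submitters' processing notes list SICER, MACS3, STAR, deepTools and Bowtie2 for all assays together. Their genome builds are mm10 and GRCm38. For the program that counted the reads, its strand setting and its annotation, the sources used here give nothing. Values of overlapping, antisense and near-identical genes are uncertain. The table held 53465 identifiers, of which 53274 matched a symbol, and 1 row without an identifier was left out.

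The model was fitted to the counts with edgeR 4.0.16 under R 4.3.3. filterByExpr (minimum count 10, total 15) kept 16921 genes, TMM scaled the libraries, and a quasi-likelihood fit of the 4 group means over all 8 libraries (4 residual degrees of freedom, biological coefficient of variation 5.14%) gave two-sided F tests, adjusted by Benjamini-Hochberg over all genes tested. Genes past 0.05 are called risen or fallen. Each SE is the size of the log2 fold change divided by the root of its F statistic, and fold changes use a prior count of 0.125. With 2 libraries in each group, the smallest p of an exact permutation test is 0.33. The fit was also run on simulated data, in which few genes changed and all shared a single biological coefficient of variation. In the real data 55.6% of genes passed, so that run gives no error rate for them.

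The gene lists and members were chosen with earlier results of these data known. Named genes were the 10 largest changes per direction at a mean of 5 CPM or more over the 4 libraries without overlap. To these were added the 3 smallest adjusted p of each list with at least 3 calls, and the 5 largest differences in CPM per direction. The 5 largest per direction in interaction and in opposite response, at the same mean, were also named. For interaction, the absolute change had to be larger in dKO than in WT. Men1, Kmt2a, Kmt2b, Kmt2c, Kmt2d, Meis1 and Hoxa9 were named in any case. Not all of these are printed, and other list genes were named after their values were seen. The rankings by change, interaction and opposite response left out predicted, RIKEN and clone-named genes and those whose dKO groups overlapped. Motifs were searched in 13896 RefSeq promoters (GRCm38.p6) of 10883 tested genes. Alternatives were DESeq2 1.42.0, a filter of 50 counts in 2 libraries, no filter, scaling by RLE factors or by library size, the 4 dKO libraries alone, leaving out each library, and the replicate block. The 32 samples of other assays were not used here.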

Additional observations from a re-analysis of the deposited data

Results flagged for a closer look

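The MI-503 response differed between genotypes for many of the named genes. The interaction, which tests the response in dKO minus the response in WT, passed at an edgeR adjusted p under 0.05 for 139 of the 185 genes named, and 24 of those differed by at least 4-fold. Many of these genes were named for a large change or a large interaction, so this share is set by the choice of genes. The limit of 4-fold was set after the values were seen, and the groups hold 2 libraries each.

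The response was higher in dKO for 16 genes. Chaperones and folding factors were among them, with log2 differences of 4.17 for Sdf2l1, 3.88 for Hsp90b1, 3.56 for Hspa5, 3.22 for Calr, 2.73 for Pdia6 and 2.47 for Hspa8. The others were Krt6b at 4.03, Zeb2 at 3.90, Grb10 at 3.61, Fas at 3.08, Ccn1 at 3.03, Nol4l at 3.01, Hoxd13 at 2.33, Gdf15 at 2.24 and Ddit3 at 2.02. The WT MI-503 libraries measured only 0.0877 and 0.0835 CPM for Krt6b and 0.0146 and 0.0334 CPM for Zeb2. They measured 0.0731 and 0.0334 CPM for Grb10 and 0.0146 and 0.0668 CPM for Hoxd13. In these libraries 3 counts are worth 0.0443 and 0.0505 CPM before TMM scaling, so the sizes of these differences rest on few WT reads. For Mmp2 the fitted difference was 5.50, a value that depends on the prior count, since the DMSO libraries of dKO held no count.

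The response was lower in dKO for 8 genes. The log2 differences were -4.22 for Prl2c3, -3.75 for Vim, -2.96 for Prune2, -2.95 for Cdsn, -2.76 for Gjb2, -2.42 for Ifi44, -2.29 for Isg15 and -2.25 for Pck2. Prl2c3 and Vim rose in both genotypes, and less in dKO. The WT DMSO libraries measured only 0.0976 and 0.215 CPM for Prl2c3 and 0.260 and 0.0992 CPM for Prune2. The sizes of these differences thus rest on few WT reads.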

How the results depend on the processing

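The counts of genes risen and fallen stayed within 1.5 times of 4917 and 4485 under every alternative run. They were 4905 and 4491 with RLE size factors, 5048 and 4352 by library size only, 4436 and 4133 in DESeq2, 4802 and 4769 without a filter, 4402 and 4530 with the stricter filter, and 4441 and 4582 from the 4 dKO libraries alone. Leaving out 1 dKO library gave 4198 to 4486 risen and 3959 to 4226 fallen, where a lone library is assumed to vary like the other groups. Of the 9402 calls, 84.0% to 99.5% were called in the same direction under each alternative, and none in the opposite one. With the replicate block, 4683 genes rose and 4236 fell. Replicate numbers in the labels name no shared animal, batch or day. Same-numbered libraries deviated from their group means with a correlation over genes of -0.0886 in dKO and 0.0585 in WT. With 2 libraries in each group, these values cannot show whether same-numbered libraries share a batch, day or animal. Over the genes named by the rule or in the text, 2551 of 2570 values kept their side of the threshold. Another 13 lost the call and 6 gained it, all within Eya1, Kmt2d, H2-Ab1, Gsdmc2, Krt5 and Krt14. Of values that passed in the main fit or in the alternative, 0 changed sign. Sign changes of genes that passed in neither fit were not counted. Genes under 1 CPM are limited by depth, since 3 counts are worth 0.0443 to 0.0516 CPM. List medians near 0 changed sign in some settings, those of heat shock, differentiated urothelium, NOTCH, TGF-beta and BMP, YAP, endothelial and neural genes.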

Other observations

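Further genes with large changes in dKO organoids belonged to none of the groups above. Acot2, a mitochondrial acyl-CoA thioesterase, measured 24.7 and 26.6 CPM in DMSO and 1.42 and 1.13 CPM with MI-503 (log2 fold change -4.32, SE 0.12, edgeR adjusted p = 6.6e-12). Steap3, a ferrireductase of the iron uptake pathway, measured 1.11 and 1.05 CPM in DMSO and 11.6 and 8.69 CPM with MI-503 (log2 fold change 3.23, SE 0.15, edgeR adjusted p = 1.01e-09). The tripartite motif gene Trim46 fell by 3.66, and the purine receptor gene P2rx3 fell by 3.55 on the log2 scale. Khdrbs2 fell by 3.48 and Tmem154 fell by 3.30, while Fam184a and Plekha6 rose by 3.40 and 2.84.

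Of 23 genes of the YAP and TEAD group 9 rose and 8 fell, and its median changed sign without the first DMSO library and without the first MI-503 library. Ccn2, a matricellular protein and textbook YAP target, measured 23.9 and 23.2 CPM in DMSO and 149.6 and 145 CPM with MI-503 (log2 fold change 2.64, SE 0.050, edgeR adjusted p = 3.78e-13), and Axl, a receptor tyrosine kinase, rose by 2.14. Ccn1, a close relative of Ccn2, rose by 0.37, and Nt5e, an ecto-nucleotidase, fell by 1.75. Among the genes with the largest differences in CPM, Hsp90ab1 measured 2804 and 2638 CPM in DMSO and 4099.6 and 4122 CPM with MI-503 (log2 fold change 0.60, SE 0.052, edgeR adjusted p = 3.63e-07) and Tmsb4x, an actin-sequestering peptide, measured 1257 and 1129.5 CPM in DMSO and 2316 and 2485 CPM with MI-503 (log2 fold change 1.01, SE 0.061, edgeR adjusted p = 1.05e-08).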
